A study of Mus musculus with 4 samples.

Results

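The spots described here are those in which messenger RNA of retinal ganglion cells made up an unusually large share of what was captured. They come from Visium spatial transcriptomics, in which a tissue section lies on a grid of barcoded spots and each captured molecule is counted once by a unique molecular identifier (UMI). A spot is a small area that can cover several cells of different types, so it is not a cell. A spot was taken as a ganglion spot where it held at least 300 UMIs and where 8 genes (Nefl, Nefm, Sncg, Slc17a6, Pou4f1, Rbpms, Thy1 and Stmn2) together made up at least 1.5% of its UMIs. Of 4603 spots over tissue, 3333 held 300 UMIs or more, and 479 of these met the rule, which left 2854 other spots.

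The 4 capture frames held cryosections of fresh frozen posterior eyes of C57BL/6J mice, labelled as retina, 1 biological replicate a frame, and the treatment given for every frame is Naive+AAV2/2. The age of the mice is not in the labels. The design text of the series names AAV2/2 vectors carrying CMV-Wif1-HA-IRES-GFP or CMV-Wif1-HA, a CMV-IRES-GFP control vector, and control retinas beside retinas at 2 and 4 weeks AVI, an abbreviation that the text leaves unexplained. The labels do not say which frame holds which condition, so the frames were treated as replicates of 1 group and no treatment was compared. CMV is a viral promoter that is active in many cell types, so the promoter by itself does not limit expression to ganglion cells. Which cells expressed a vector was not tested.

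Retinal ganglion cells are the output neurons of the eye. Their cell bodies form the innermost nuclear layer of the retina, they receive input from bipolar and amacrine cells, and their axons run across the retinal surface into the optic nerve. Their long axons are filled with neurofilaments and depend on motor proteins for transport, and loss of these cells is what impairs vision in glaucoma. Wif1 encodes a secreted protein that binds Wnt ligands and limits Wnt signalling.

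Ganglion spots made up 12.7%, 15.1%, 13.5% and 16.4% of the spots of at least 300 UMIs in frames 1 to 4, a mean of 14.4% ± 1.67 (SD, n = 4 frames). They numbered 106, 146, 115 and 112. The exact binomial 95% intervals of these shares, which cover counting error only, ran from 10.5% to 15.2% in frame 1 and from 13.7% to 19.4% in frame 4, so the frames' intervals overlapped. Ganglion spots held 549372 UMIs of the 3522010 over tissue, between 111967 and 168627 a frame. The median ganglion spot held 772, 865.5, 993 and 1056 UMIs, against 757, 770.0, 737.5 and 661 in the other spots of the same frames. The ganglion spots were the deeper set in 4 of 4 frames, by 0.33 ± 0.29 on the log2 scale, with p = 0.13 in an exact two-sided sign-flip permutation test, the smallest p that 4 frames allow. In frame 1 the log2 ratio was only 0.03, and it turned to -0.16 when the threshold was 2% of UMIs. Each frame carries barcodes of the same array grid, and 1271 barcodes occurred in more than 1 frame, so a barcode was always read together with its frame. Frames are the replicates throughout. The labels give no animal for a frame beyond the replicate number, so p-values measure the spread between these 4 frames.

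The 8 marker genes chose the spots, so their levels are a description with no test. Nefl, the light neurofilament chain, stood at 13861, 16539.5, 16784 and 16339 CPM (UMIs of a gene per 1000000 UMIs of the spot set) in the ganglion spots of frames 1 to 4 and at 1722, 1946, 2043 and 2107 CPM in the other spots. It supplied 68.8% of all marker UMIs in the ganglion spots and was seen in 100% of them, against 54.9% of the other spots. Frame 1 was the lowest of the 4 for Nefl. Sncg, gamma-synuclein, stood at 3512 ± 446 CPM (SD, n = 4, as for the other levels in this paragraph) against 456 ± 32.9. Nefm, the medium neurofilament chain, stood at 2395 ± 374 CPM against 191 ± 20.5. The rarer markers were far apart between the sets as well. Slc17a6, the vesicular glutamate transporter of ganglion cells, stood at 391 ± 68.2 against 52.1 ± 19.6 CPM. Pou4f1, a transcription factor of ganglion cells, stood at 305 ± 42.9 against 42.6 ± 7.93 CPM. Thy1, a surface glycoprotein, stood at 372 ± 46.7 against 63.7 ± 9.02 CPM, Stmn2, a microtubule regulator of growing axons, at 303 ± 49.3 against 37.6 ± 11.5 CPM, and Rbpms, an RNA-binding protein, at 63.1 ± 13.9 against 18.3 ± 4.59 CPM. For each of the 8 markers the lowest frame of the ganglion spots lay above the highest frame of the other spots.

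**Figure D1:**
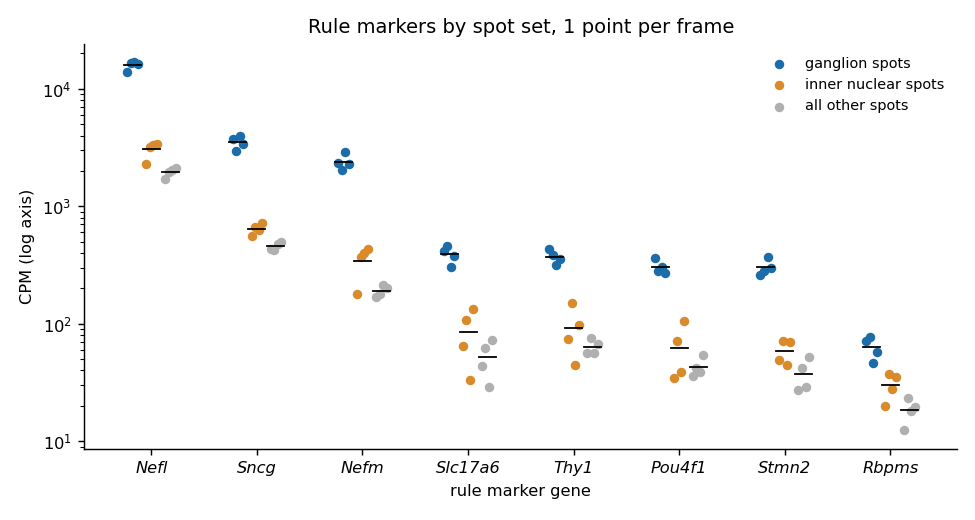
CPM (log axis) of the 8 rule markers in ganglion spots, inner nuclear spots and all other spots, 1 point per frame with the mean as a bar. In all 8 genes the 4 ganglion points lie above the 4 points of the other spots, which the rule itself brings about, and Nefl is the gene with the most UMIs.

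The markers did not contribute equally to the choice. Of the 479 ganglion spots, 344 (71.8%) held UMIs of at least 3 different markers, against 8.79% of the other spots, 96 held 2 and 39 held 1. A UMI of Pou4f1, Slc17a6 or Rbpms was seen in 195 ganglion spots (40.7%) and in 6.41% of the other spots. Nefl alone brought 266 ganglion spots past 1.5%, and only 28 spots in all, 5 to 9 a frame, reached 1.5% without Nefl. When the same number of spots in each frame was taken by the share of the 7 markers other than Nefl, 343 ganglion spots (71.6%) were chosen again. Among ganglion spots the pairwise Pearson correlations of the markers' shares lay between -0.22 (Nefl with Sncg) and 0.14 (Slc17a6 with Pou4f1), a description over 479 spots that share their libraries and depth. The shares of the 8 markers are continuous across the threshold. The lowest ganglion spot had a share of 1.502% and the highest other spot 1.495%, 90 ganglion spots lay under 1.75%, and 113 other spots lay at 1.25% or above. The median share was 2.21% in the ganglion spots, with a highest value of 7.08%, and 0.133% in the other spots, of which 1024 had no marker UMI. A further 81 spots with a share of at least 1.5% were left out because they held fewer than 300 UMIs.

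The name was set beside 24 further ganglion cell genes that had no part in the rule, among them Pou4f2, Ebf1, Rbpms2, Nefh, Tubb3, Chrna6 and Nrn1. This list was chosen with earlier results of these data known, so its levels are a description and no independent check. Together these made up 0.269%, 0.236%, 0.232% and 0.245% of the UMIs of the ganglion spots and 0.0515%, 0.0621%, 0.0547% and 0.0639% of those of the other spots. The lowest ganglion frame was above the highest other frame. Against the marker share, their level rose from 0.0205% ± 0.00199 in spots with no marker UMI to 0.0373% ± 0.00224 below a share of 0.5%, 0.129% ± 0.0177 from 0.5% to 1% and 0.213% ± 0.0224 from 1% to 1.5% (SD, n = 4 frames). Within the ganglion spots it stood at 0.227% ± 0.0338 from 1.5% to 2%, 0.257% ± 0.0238 from 2% to 3% and 0.247% ± 0.0163 from 3% upwards. The bands just below and just above the threshold differed by less than the spread between frames.

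RNA of other cell classes was present in the ganglion spots, mostly at lower levels than elsewhere. The 14 rod genes on the list made up 0.297% ± 0.0714 of UMIs in ganglion spots against 3.87% ± 0.531 in the other spots, the bipolar genes 0.0205% ± 0.00462 against 0.0700% ± 0.0176, and the Müller glia genes 0.0953% ± 0.0267 against 0.245% ± 0.0325. The amacrine genes went the other way, with 0.184% ± 0.0177 against 0.0983% ± 0.0225, and so did the horizontal cell genes, with 0.130% ± 0.0130 against 0.0690% ± 0.00865. Most of the horizontal cell sum came from a single gene, Tpm3, with a mean of 1147 CPM against 559 CPM. Of the other tested genes of that list, Onecut2 was higher (93.4 against 40.9 CPM) and Prox1 lower (9.53 against 55.3 CPM). Amacrine cells lie both in the ganglion cell layer and in the layer next to it. Of the 479 ganglion spots, 121 held no amacrine UMI, 78 no rod UMI, 229 no Müller glia UMI and 396 no bipolar UMI. Fewer cells of a type under a spot and less RNA per cell cannot be told apart in these sums. The part of other cells in the gene differences below was not tested.

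**Figure D2:**
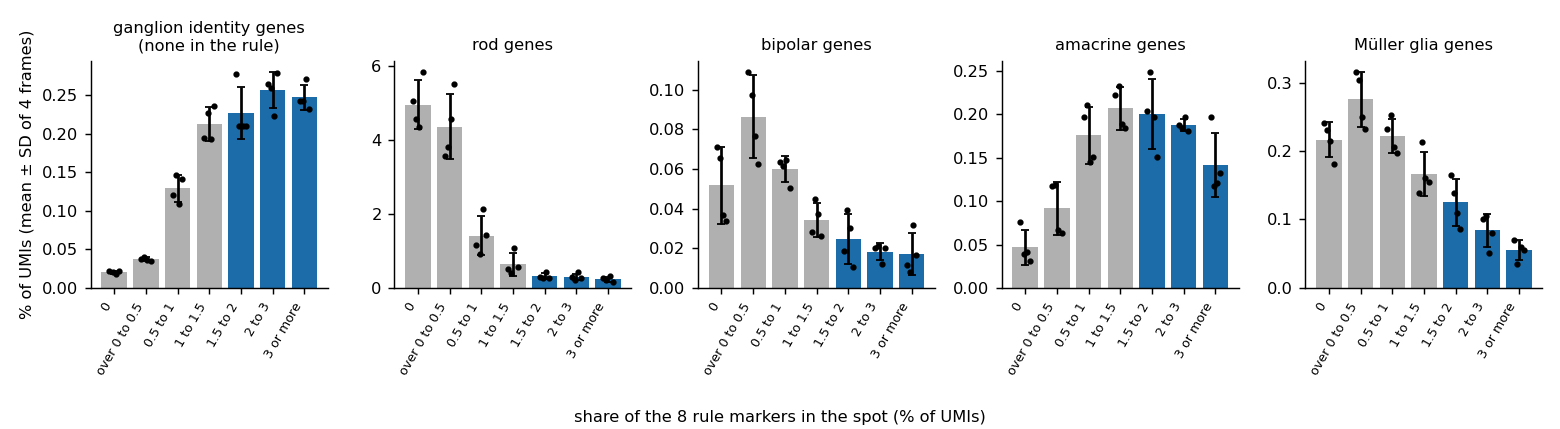
Percent of UMIs from 5 gene lists in spots grouped by their share of the 8 rule markers (x axis, % of UMIs), with bars for the mean ± SD of 4 frames and a point per frame. Blue bars are ganglion spots, where ganglion identity genes stand between 0.227% and 0.257% and rod genes between 0.232% and 0.318%, and grey bars are the other spots.

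To see which genes besides the markers distinguished these spots, the UMIs of the ganglion spots and of all other spots were summed in each frame, and both sums of a frame were compared with the frame as a block. The 8 markers were left out of the library sizes and the test. Of 4422 genes with enough UMIs, 1702 (38.5%) passed edgeR's quasi-likelihood test at an adjusted p under 0.05. Of all genes tested, 19.7% were higher (872) and 18.8% lower (830) in ganglion spots, and the median log2 fold was -0.03. Because the spots were chosen for ganglion cell RNA, other RNA of the same cells was bound to be higher in them, and a gene rich in 1 spot set alone can pass the minimum count through that set. The counts below describe the lists beside these percentages and are no test of the lists. Overlap between frames is stated for single genes that were picked by fold, by p or with their values known. It describes those genes and adds no evidence to their tests, and its share over all tested genes is not given.

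Genes that define ganglion cells had the highest median fold of the lists. Of the 24 identity genes 13 had enough UMIs, and all of these 13 were higher in ganglion spots, with a median log2 fold of 2.07. Pou4f2, a transcription factor needed for the survival of ganglion cells in development, stood at 339, 243, 186 and 243 CPM in the ganglion spots and 35.7, 34, 24.8 and 38.7 CPM in the other spots. The sets did not overlap, and the log2 fold was 2.88 ± 0.28 (SD of the frames' folds, n = 4; edgeR quasi-likelihood adjusted p = 2.92e-09). It was seen in 106 of the 479 ganglion spots. Nefh, the heavy neurofilament chain, stood at 384, 326, 318 and 165 CPM against 46.7, 44.6, 45.5 and 40.9 CPM. Frame 4 was the lowest, yet above every frame of the other spots, and the log2 fold was 2.70 ± 0.51 (edgeR adjusted p = 3.73e-09). Nrn1, a membrane-anchored factor for neurite growth, stood at 322, 349.9, 457 and 351 CPM against 49.4, 70.4, 49.7 and 90.4 CPM. These sets did not overlap either, with a log2 fold of 2.50 ± 0.55 (edgeR adjusted p = 4.25e-09). Rbpms2, the paralogue of the marker Rbpms, rose by a log2 fold of 2.58. The transcription factor Ebf1 rose by 2.07, the neuronal tubulin Tubb3 by 2.06, and Gap43, a growth-cone protein, by 1.77. Chrna6 and Chrnb3, nicotinic acetylcholine receptor subunits, rose by 2.04 and 2.13. The other 11 genes had too few UMIs, among them Isl2, a transcription factor with 6 UMIs in ganglion spots.

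Genes used to tell ganglion cell types apart were mixed. Of 26 such genes 10 were tested, 5 were higher and 2 lower in ganglion spots, and their median log2 fold was 0.78. Calb2, the calcium-binding protein calretinin, stood at 786, 699.8, 736 and 780.1 CPM against 94.8, 167, 127 and 174 CPM, a log2 fold of 2.40 ± 0.45 (edgeR adjusted p = 4.48e-11). Trarg1, a regulator of glucose transporter trafficking, stood at 473, 374, 496 and 565 CPM against 65.9, 110.3, 78.7 and 96.8 CPM, a log2 fold of 2.39 ± 0.44 (edgeR adjusted p = 8.82e-10). Neither gene overlapped between the sets. Cartpt, a neuropeptide of direction-selective ganglion cells, rose by 1.03, but its frames overlapped, because the other spots of frame 4 stood at 512 CPM and the ganglion spots of frame 3 at 496 CPM. Spp1, osteopontin of alpha ganglion cells, rose by 1.86, and the calcium buffer Pvalb by 1.38. The insulin-like growth factor binding protein Igfbp5 fell by 1.21 on the log2 scale. Penk, the enkephalin precursor, had a log2 fold of -1.04 with folds of -4.23, -0.68, -0.65 and -0.56 in frames 1 to 4. Its call was lost in 8 of 13 other settings of the processing (the rule without Nefl, which leaves 28 spots, is not among the settings counted for single genes), among them each fit without 1 frame, which gave -0.68 without frame 1 and -1.17 to -1.27 without any other. Opn4, the photopigment of intrinsically photosensitive ganglion cells, had 1 UMI in all ganglion spots and 9 in the other spots. Eomes, a transcription factor of the same cells, had 12 UMIs, or 21.8 CPM with an exact Poisson 95% interval of 11.3 to 38.2, against 7.22 CPM (4.41 to 11.2) in the other spots. Both were too rare for the test.

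The axon and its cytoskeleton gave the longest list of called genes. Of 31 genes on the list 26 were tested, 22 were higher and 2 lower, and the median log2 fold was 1.47. Stmn4, a tubulin-binding stathmin, stood at 1742, 1844, 1829 and 1875 CPM against 444, 562, 722 and 540.2 CPM. Its frames were close to each other within each set and far apart between the sets (log2 fold 1.67 ± 0.26, edgeR adjusted p = 6.39e-11). Uchl1, an abundant neuronal ubiquitin hydrolase, stood at 572, 445, 597 and 558 CPM against 141, 92.7, 105 and 92.5 CPM, a log2 fold of 2.30 ± 0.22 (edgeR adjusted p = 2.09e-10). Dpysl2, which promotes microtubule assembly in axons, stood at 3081, 2342, 2542 and 3092 CPM against 1216, 1226, 929 and 1074 CPM, a log2 fold of 1.28 ± 0.22 (edgeR adjusted p = 1.30e-09). The 2 that passed as lower were Map2, a microtubule protein of dendrites, by 0.74 on the log2 scale, and Dpysl3, a relative of Dpysl2, by 0.72. Both calls were fragile. That of Map2 was lost without frame 2 (adjusted p = 0.0633) and without frame 4 (0.0577), and that of Dpysl3 was lost in 5 of 13 settings, among them the fits without frame 2 (-0.67), 3 (-0.65) or 4 (-0.52).

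Among 22 axonal motor genes 18 were tested, 9 were higher and 1 lower, with a median log2 fold of 0.52. Klc2, a light chain of the kinesin that carries cargo away from the cell body, stood at 419.8, 374, 496 and 401 CPM against 109, 95, 120.1 and 68.9 CPM. The sets did not overlap, and the log2 fold was 2.08 ± 0.20 (edgeR adjusted p = 4.78e-09). Dync1h1, the heavy chain of the dynein that carries cargo back, stood at 2429, 2449, 2549 and 2355 CPM against 1404, 1383, 1616 and 1154 CPM, a smaller but even difference of 0.79 ± 0.11 (edgeR adjusted p = 2.14e-06). Kif5a, a neuronal kinesin heavy chain, rose by 1.47, with folds of 2.27, 1.91, 1.31 and 0.37 in frames 1 to 4, the smallest where the other spots of frame 4 stood at 278 CPM, above the ganglion spots of frame 3 at 271 CPM. Kif1b, a kinesin that carries mitochondria and synaptic vesicle precursors, was the 1 motor gene that passed as lower, by 0.87. The lowest fold of the list, -0.92, belonged to another gene that did not pass.

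**Figure D3:**
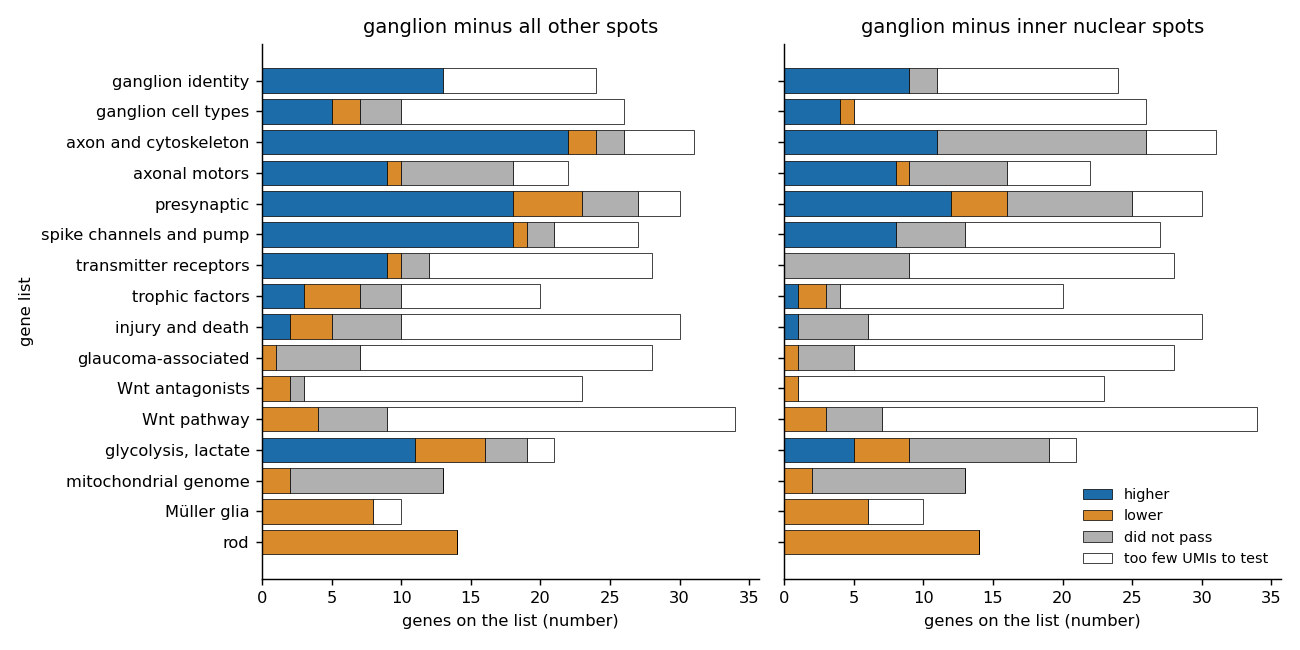
Number of genes on each of 16 lists (x axis) that were higher or lower in ganglion spots at an edgeR adjusted p under 0.05, that did not pass, or that had too few UMIs to test, against all other spots (left) and against inner nuclear spots (right). All 13 tested identity genes are higher on the left and 9 of 11 on the right, and all 14 rod genes are lower on both sides.

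Presynaptic genes went both ways. Of 30 on the list 27 were tested, 18 were higher and 5 lower, and the median log2 fold was 0.96. Snap25, a core protein of vesicle fusion, stood at 8056, 7259, 7369 and 8803 CPM against 2953, 2960.1, 2199.8 and 2249 CPM, a log2 fold of 1.58 ± 0.25 (edgeR adjusted p = 2.95e-12). Cplx1, a complexin of conventional synapses, stood at 259, 255, 309.9 and 279 CPM against 44, 49.3, 29 and 36.6 CPM, a log2 fold of 2.76 ± 0.41 (edgeR adjusted p = 3.68e-09). Vamp1, a vesicle membrane protein, rose by 2.48. Those that fell included genes of photoreceptor and bipolar cell ribbon synapses. Cplx4, the complexin of ribbon synapses, stood at 116, 101, 124 and 7.16 CPM against 927, 859, 836 and 600.5 CPM, a log2 fold of -3.28 ± 1.45 (edgeR adjusted p = 2.90e-10). Stx3, the syntaxin of ribbon synapses, stood at 8.93, 5.93, 23.2 and 14.3 CPM against 137, 203, 217 and 198 CPM, a log2 fold of -3.91. Slc17a7, the glutamate transporter of photoreceptor and bipolar vesicles, had a log2 fold of -4.09, while the glutamate transporter of ganglion cells, Slc17a6, is one of the rule markers.

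Genes of electrical signalling were mostly higher. Of 27 ion channel and sodium pump genes 21 were tested, 18 were higher and 1 lower, with a median log2 fold of 1.79. Atp1b1, a subunit of the sodium pump, stood at 1893, 1927, 1821 and 2004 CPM against 537, 625, 563 and 579 CPM. All 4 frames gave nearly the same log2 fold, 1.79, 1.64, 1.68 and 1.65 (edgeR adjusted p = 1.26e-11). Kcnh7, a potassium channel of the ERG family, stood at 295, 504, 387 and 329 CPM against 87.9, 88, 67.6 and 64.6 CPM, a log2 fold of 2.26 ± 0.37 (edgeR adjusted p = 5.78e-09). Scn2b, a sodium channel subunit, rose by 2.23, and Cacna1a, a presynaptic calcium channel, by 2.47. Of 28 transmitter receptor genes 12 were tested, 9 were higher and 1 lower, with a median of 1.31. Grin1, the shared subunit of NMDA receptors, stood at 107, 231, 101 and 179 CPM against 54.9, 56.3, 55.2 and 36.6 CPM and rose by 1.55. Gabrr1, a GABA receptor subunit of bipolar cells, had a log2 fold of -1.63, with the opposite sign in frame 4, and lost its call in 5 of 12 settings, among them the fits without frame 1 (-1.20) and frame 2 (-1.31).

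The 10 genes with the largest positive folds among those of the same sign in 4 of 4 frames were Coro6, Miat, Kcnd2, Clstn2, Nsg1, Tmem163, Pou4f2, Cplx1, Nefh and Ube2ql1. Tmem163, a zinc transporter of vesicles, stood at 1170.0, 1399.5, 1162 and 1217 CPM against 151, 159.6, 155 and 151 CPM (log2 fold 2.97 ± 0.13, edgeR adjusted p = 7.51e-15). Coro6, an actin-binding coronin, stood at 152, 53.4, 54.2 and 57.3 CPM against 6.87, 7.04, 5.52 and 6.46 CPM, with frame 1 far above the other 3. Miat, a long non-coding RNA of neurons, stood at 116, 65.2, 139 and 129 CPM against 8.24, 7.04, 11 and 17.2 CPM. The sets did not overlap in any of these genes, which were picked for large folds of the same sign in all frames. Clstn2, a synaptic adhesion protein, stood at 304, 409, 356 and 415 CPM against 24.7, 36.4, 70.4 and 49.5 CPM, Nsg1, an endosomal protein of neurons, at 581, 439, 364 and 730.0 CPM against 56.3, 71.6, 67.6 and 49.5 CPM, and Kcnd2, an A-type potassium channel, at 62.5, 196, 101 and 57.3 CPM against 16.5, 9.39, 6.9 and 8.61 CPM. Their fitted log2 folds were 3.05, 3.01 and 3.28. Ube2ql1, a ubiquitin-conjugating enzyme relative, stood at 152, 403, 457 and 272 CPM against 33, 43.4, 49.7 and 66.7 CPM, a log2 fold of 2.69.

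The 10 genes with the most negative folds were at or near 0 in ganglion spots, so their levels are given as UMIs. Lrrc2 had 0 UMIs in ganglion spots and 208 in the other spots, and Ndrg1 had 0 against 200. Set against a floor of 3 UMIs over all ganglion spots, they were at least 13.8-fold and at least 13.2-fold lower. Prcd, a photoreceptor disc protein, had 2 UMIs against 707, which was 70.1-fold lower per UMI captured (95% counting interval 19.3 to 580.1). Trpm1, the light-response channel of ON bipolar cells, had 1 against 307 and was 60.9-fold lower (10.8 to 2413). Abca4, the photoreceptor lipid flippase, had 2 against 502 and was 49.8-fold lower (13.7 to 412). Drd4, a dopamine receptor of photoreceptors, Alpl, Pdzph1, Ccdc126 and Cyp4f17 had 1 UMI each in ganglion spots against 173 to 242 in the other spots.

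**Figure D4:**
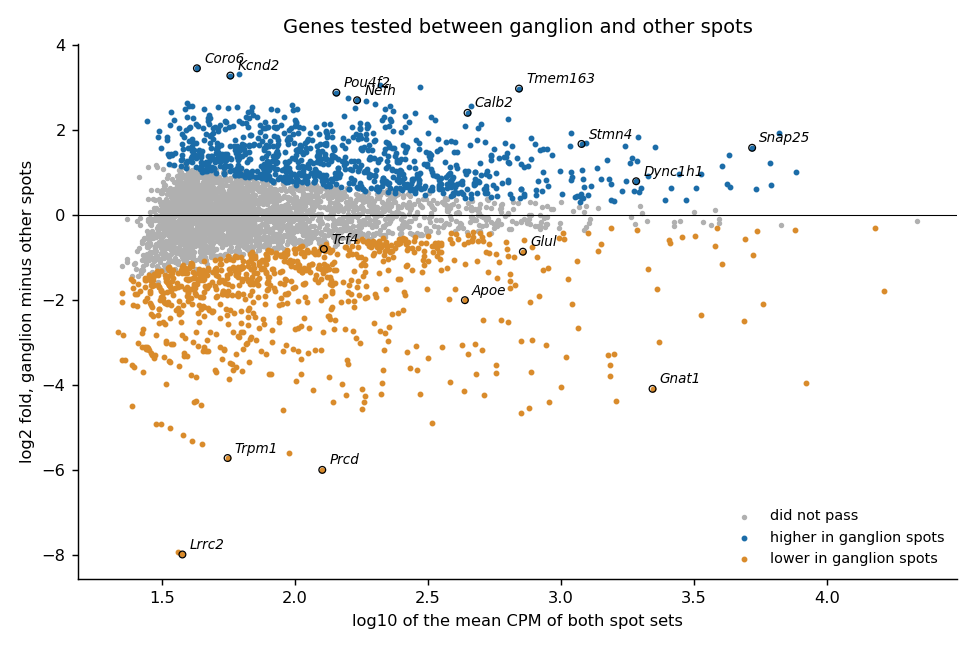
Log2 fold of ganglion spots minus other spots (y axis) against the log10 of the mean CPM of both spot sets (x axis) for 4422 genes, 1 point per gene. Blue points passed edgeR's test as higher (872) and orange points as lower (830), with Pou4f2, Nefh and Tmem163 high and Gnat1 and Prcd low.

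Genes of photoreceptors, pigment epithelium and Müller glia were lower in ganglion spots. All 14 rod genes were lower, with a median log2 fold of -3.99. Gnat1, rod transducin, stood at 241, 166, 318 and 293 CPM in ganglion spots and 3898, 3970.2, 4045 and 4743 CPM in the other spots, so rod RNA was reduced but not absent (log2 fold -4.09 ± 0.35, edgeR adjusted p = 9.17e-18). Prph2, also on the rod list, had a log2 fold of -4.39. The tested genes of cones (5), pigment epithelium (9) and fibroblasts (7) were also all lower. So were all 8 tested Müller glia genes, with a median of -1.78. Apoe, the lipid carrier of glia, stood at 250.1, 208, 132 and 122 CPM against 640.1, 756, 813 and 564 CPM (log2 fold -2.01 ± 0.54, edgeR adjusted p = 4.94e-09). Glul, glutamine synthetase, fell by 0.87, but its frames overlapped, since ganglion spots of frame 1 stood at 777 CPM and other spots of frame 3 at 707 CPM. Of 4 tested astrocyte genes 2 were lower, among them Clu, clusterin, with a log2 fold of -0.94, which did not pass without the frame block. The frames of Clu overlapped, since ganglion spots of frame 3 stood at 4246 CPM and other spots of frame 4 at 2675 CPM. Its fold in frame 4 was -0.27. Gfap, the intermediate filament of astrocytes and reactive Müller glia, stood at 232, 172, 279 and 222 CPM against 79.7, 138, 369.9 and 301 CPM. Its frames overlapped and went both ways, with a log2 fold of 0.13 ± 0.93 (edgeR adjusted p = 0.736) that became -0.25 without frame 1. Of 4 microglia genes none passed edgeR's test, 1 had an unadjusted p under 0.05, and DESeq2 called 0.

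Amacrine genes went partly the other way. Of 6 tested, 3 were higher and 1 lower. Slc32a1, the vesicular transporter of GABA and glycine, stood at 822, 1085, 891 and 773 CPM against 439.5, 466, 353 and 249.7 CPM, a log2 fold of 1.23 ± 0.25 (edgeR adjusted p = 1.76e-07), and the sets did not overlap. The GABA-producing enzyme Gad1 had a log2 fold of 0.96, and the glycine transporter Slc6a9 one of -1.33. Gad1 lost its call in 8 of 13 settings, among them the fits without frame 1 (1.01), frame 2 (0.99) and frame 4 (0.84) and a random 50% of UMIs (0.33). Slc6a9 lost its call in 3 of 12, which were the fit without frame 2 (-1.15), DESeq2 (-1.37) and a threshold of 2% (-1.29). Of 3 tested horizontal cell genes, Tpm3 and Onecut2 were higher and Prox1 lower, and the call of Onecut2 was lost at a threshold of 2% (0.98) and with the same number of spots by the 7 other markers (0.73). Mbp, myelin basic protein, stood at 35.7, 23.7, 15.5 and 28.6 CPM in ganglion spots and 22, 63.4, 257 and 377 CPM in the other spots. The sets overlapped and were farthest apart in frames 3 and 4, with a log2 fold of -2.65, and the call was lost without the frame block and with DESeq2.

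Trophic and stress-related genes showed no common direction. Of 20 genes on the trophic factor and receptor list 10 were tested, 3 were higher and 4 lower. Fgf12, an intracellular regulator of sodium channels, stood at 205, 160.1, 194 and 272 CPM against 39.8, 48.1, 31.7 and 96.8 CPM and rose by 1.96 (edgeR adjusted p = 2.87e-06). Lifr, the receptor of leukaemia inhibitory factor, fell by 1.53 and did not overlap between the sets. Igf1r, the receptor of insulin-like growth factor, had a log2 fold of -1.78, with 0 UMIs in frames 1 and 3 and 78.7 CPM in frame 4. Its frames overlapped, and its call was lost without frame 1 (-1.41) and without frame 2 (-1.78). Of 30 injury and cell death genes 10 were tested, 2 were higher and 3 lower. Nmnat2, the axon survival enzyme that makes NAD, stood at 169.7, 125, 69.7 and 143 CPM against 13.7, 35.2, 24.8 and 45.2 CPM and rose by 2.07. Bcl2l1, which protects against cell death, had a log2 fold of 0.89 and lost its call in 7 of 13 settings, among them the fits without frame 2 (0.83) and frame 4 (0.86), a random 50% of UMIs (0.31) and the same number of spots by the 7 other markers (0.41). The chaperone Hspa5 fell by 1.18 and did not overlap. Jun, a transcription factor of the axon injury response, stood at 17.9, 53.4, 62 and 57.3 CPM against 68.7, 68, 56.6 and 66.7 CPM and did not pass (edgeR adjusted p = 0.357).

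Of 28 genes linked to glaucoma 7 were tested, and only Tgfb2 passed. This growth factor, which is raised in the aqueous humour of glaucoma patients, stood at 0, 47.4, 23.2 and 28.6 CPM in ganglion spots and 133, 97.4, 96.6 and 60.3 CPM in the other spots. The sets did not overlap, and the log2 fold was -1.85 ± 1.79 (edgeR adjusted p = 0.00157). Opa1 and Mfn2, which fuse mitochondria, did not pass. Opa1 stood at 107, 113, 116 and 115 CPM against 96.1, 54, 64.9 and 58.1 CPM, with a log2 fold of 0.73 and an adjusted p of 0.0518 in edgeR's test, and passed in 5 of 13 settings, among them the fit without frame 1 (0.91), a threshold of 1% (0.98), a random 50% of UMIs (1.204) and the same number of spots by the 7 other markers (1.11).

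Genes of glucose use went both ways. Of 21 glycolysis and lactate genes 19 were tested, 11 were higher and 5 lower, with a median log2 fold of 0.67. Hk2, the hexokinase of photoreceptors, stood at 17.9, 11.9, 23.2 and 35.8 CPM against 427, 398, 413 and 364 CPM, a log2 fold of -4.20 ± 0.54 (edgeR adjusted p = 2.35e-11). Eno2, neuronal enolase, stood at 259, 379.5, 449 and 279 CPM against 125, 108, 106 and 101 CPM and rose by 1.60. Ldha, the lactate dehydrogenase chain that favours making lactate, fell by 1.09, and Ldhb, the chain that favours using it, rose by 1.20. Slc16a1, a lactate transporter, fell by 2.46. The frames of these named genes did not overlap between the sets, a description of genes picked by p or with their values known. Of the 13 protein genes of the mitochondrial genome, 11 did not pass and 2 were lower, mt-Cytb by 0.50 and mt-Atp8 by 0.73, the latter with a call that was lost in 8 of 13 settings, among them each fit without 1 frame (-0.64 to -0.84).

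Wif1, which the Wif1 vectors of the design text carry and the control vector does not, was rare. Ganglion spots held 15 Wif1 UMIs in 13 spots, 3, 7, 1 and 4 in frames 1 to 4, which is 26.8, 41.5, 7.75 and 28.6 CPM. The other spots held 42 UMIs in 27 spots, with 4.12, 28.2, 11.04 and 15.1 CPM, and 13 of these UMIs lay in 1 spot of frame 2. The level was higher in ganglion spots in 3 of 4 frames, by 11.6 ± 10.8 CPM on average (SD, n = 4), with p = 0.25 in an exact two-sided sign-flip permutation test whose smallest p is 0.13. Pooled over frames it was 27.3 CPM (exact Poisson 95% interval 15.3 to 45.0, counting error only) against 15.2 CPM (10.9 to 20.5), and the intervals overlapped. UMIs from the vector and from the mouse gene cannot be told apart here, and whether vector RNA was counted as Wif1 was not tested. When the threshold was 2% of UMIs, the mean level over frames was 9.53 CPM in place of 26.2 CPM.

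Genes of Wnt signalling that could be tested were lower or did not pass. Of 23 Wnt antagonist genes only 3 had enough UMIs. Dkk3, a secreted relative of the Dickkopf inhibitors, stood at 80.4, 113, 93 and 71.6 CPM against 202, 216, 174 and 172 CPM, a log2 fold of -1.12 ± 0.25 (edgeR adjusted p = 0.00119), with no overlap. Sfrp2, a secreted Wnt-binding protein, stood at 0, 23.7, 0 and 21.5 CPM against 114, 84.5, 71.8 and 68.9 CPM, a log2 fold of -2.75 (edgeR adjusted p = 1.97e-04). Sfrp1 did not pass, but did at a threshold of 1% and at a minimum of 500 UMIs per spot. Of 34 genes of receptors, signal transducers and targets 9 were tested, none was higher in edgeR's test (0 at an unadjusted p under 0.05 and 0 by DESeq2) and 4 were lower, with a median of 0.08. Without Tcf4, which stands on this list although its mouse symbol is not that of the Wnt effector Tcf7l2, 3 of 8 were lower, with a median of 0.12. Ryk, a Wnt receptor, stood at 447, 534, 333 and 422 CPM against 740.3, 901, 926 and 745 CPM, a log2 fold of -0.96 ± 0.35 (edgeR adjusted p = 1.73e-05). The design text names TCF4 as a regulator of the pathway, a name in use both for the gene Tcf4, which encodes the E protein E2-2, and for Tcf7l2. Tcf4 stood at 107, 119, 54.2 and 100.2 CPM against 170.3, 163, 144 and 170.0 CPM, a log2 fold of -0.80 ± 0.39 (edgeR adjusted p = 0.019). Its call was lost without frame 3 (-0.67), without frame 4 (-0.76), with DESeq2 and in a random 50% of UMIs. The co-receptor Lrp6 and the scaffold Apc had log2 folds of -0.70 and -1.25. The call of Lrp6 was lost without frame 3 (-0.53) and at a threshold of 2% (-0.55). That of Apc was lost in 5 of 12 settings, among them the fits without frame 3 (-0.999) and frame 4 (-1.28), a threshold of 1% (-0.64) and the same number of spots by the 7 other markers (-0.65). Ctnnb1, beta-catenin, stood at 161, 166, 240.2 and 243 CPM against 170.3, 148, 138 and 149 CPM and did not pass (edgeR adjusted p = 0.21). The target genes Axin2 and Lef1 had 6 and 4 UMIs in the ganglion spots and Tcf7l2, the transcription factor that acts with beta-catenin, had 11, too few for the test.

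The other spots include photoreceptors and tissue outside the retina, so the ganglion spots were also compared with spots rich in RNA of the inner nuclear layer. These inner nuclear spots, named by their genes and not by their position, were defined in each frame as the 25% of the other spots with the highest share of bipolar and amacrine genes, 713 in all. Their median depth was 839.5, 819, 698 and 586 UMIs in frames 1 to 4 (ganglion spots 772, 865.5, 993 and 1056). They contained 0.288% ± 0.0469 amacrine and 0.186% ± 0.0333 bipolar UMIs (SD, n = 4) and less rod RNA (1.501% ± 0.470) than the other spots as a whole. UMIs of the astrocyte list made up 0.886% ± 0.309 and those of the pigment epithelium list 0.268% ± 0.122. The astrocyte sum is mostly a level of Clu in the other spots as a whole, where Clu stood at 7056 CPM and the list at 0.750% of UMIs. The bipolar and amacrine lists, which chose them, were left out of the test together with the 8 markers. This comparison shares the ganglion spots and part of the other spots with the first, so it is no independent repeat. Of 2530 genes tested, 630 (24.9%) passed edgeR's test, 329 (13%) higher and 301 (11.9%) lower, with a median log2 fold of 0.01.

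Most ganglion identity genes were also higher than in the inner nuclear spots. Of 11 tested, 9 were higher and 2 did not pass, with a median log2 fold of 1.43. Nefh stood at 49.5, 54.2, 39.1 and 61.7 CPM in the inner nuclear spots, below every frame of the ganglion spots, with a log2 fold of 2.56 ± 0.73 (edgeR adjusted p = 5.29e-07). Pou4f2 stood at 44.5, 41.7, 44.7 and 61.7 CPM there, also without overlap, with a log2 fold of 2.39 ± 0.44 (edgeR adjusted p = 2.02e-06). Gap43 had a log2 fold of 0.85 and did not pass, but passed at a threshold of 1% (1.39) and with the same number of spots by the 7 other markers (1.17). Of 5 tested genes of ganglion cell types 4 were higher and 1 lower. Calb2 (1.71), Trarg1 (1.58) and Pvalb (1.45) were higher without overlap between frames. Igfbp5 had a log2 fold of -1.01 (edgeR adjusted p = 0.0412), with a call that was lost in 7 of 13 settings, among them the fits without frame 3 (-0.84) and frame 4 (-0.57) and the top 10% as inner nuclear spots (-0.66). Cartpt had a log2 fold of 0.52, with a call that was lost in 10 of 14 settings, among them the fits without frame 1 (0.53), 2 (0.43) or 3 (0.51) and the top 10% as inner nuclear spots (0.15).

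Of 26 cytoskeletal genes 11 were higher and none lower than in the inner nuclear spots, with a median log2 fold of 0.62. Stmn4 stood at 727, 967, 810.0 and 441 CPM there (log2 fold 1.32 ± 0.42, edgeR adjusted p = 1.87e-07), and Uchl1 rose by 1.34. Among 16 motor genes 8 were higher and 1 lower. Klc2 stood at 119, 121, 151 and 70.5 CPM in the inner nuclear spots (log2 fold 1.85 ± 0.29, edgeR adjusted p = 1.67e-06), and the folds of Dync1h1 lay between 0.59 and 0.71 in all frames. Of 25 presynaptic genes 12 were higher and 4 lower. Cplx1 stood at 49.5, 62.5, 22.3 and 70.5 CPM there (log2 fold 2.43 ± 0.68), Snap25 rose by 0.93, and Cplx4 and Stx3 had log2 folds of -2.03 and -3.10. Of 13 channel and pump genes 8 were higher and none lower, with a median of 1.24. Scn8a, the sodium channel of the axon's spike initiation site, rose by 1.43 and Kcnh7 by 1.52.

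**Figure D5:**
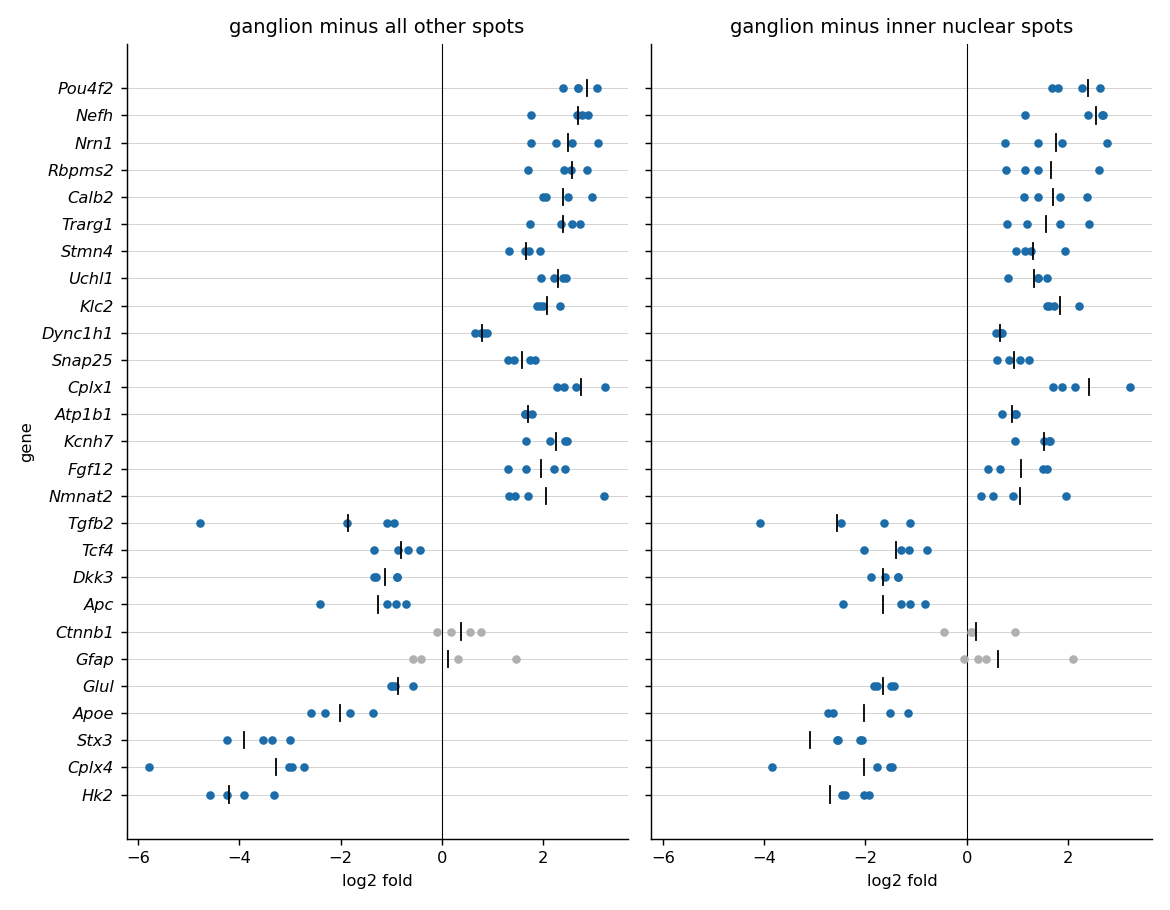
Log2 fold (x axis) of 27 named genes in ganglion spots against all other spots (left) and against inner nuclear spots (right), with a point per frame and the fitted fold as a bar. Blue points mark genes past edgeR's test and grey points those that did not pass, which are Ctnnb1 and Gfap on both sides; points of rare genes are drawn toward 0 by a prior count of 2, so a bar can lie outside them.

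For transmitter receptors, none of 9 tested genes passed against the inner nuclear spots, where their median log2 fold was 0.57. In edgeR's test 1 of the 9 had an unadjusted p under 0.05, and DESeq2 called 0. Nmnat2 (1.06) and Fgf12 (1.08) were higher, but their frames overlapped. The call of Nmnat2 was lost in 9 of 13 settings, among them the fits without frame 1 (0.67) and frame 2 (1.02), and that of Fgf12 without frame 1 or frame 3 (0.90 in each).

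Clstn2, Miat, Kndc1, Ahnak2, Tmem163, Sptb and Lynx1 joined Nefh, Cplx1 and Pou4f2 as the 10 largest positive folds against the inner nuclear spots. Lynx1, a membrane-anchored modulator of nicotinic receptors, stood at 741, 706, 1007 and 709 CPM against 178, 246, 184 and 141 CPM (log2 fold 2.05 ± 0.35, edgeR adjusted p = 1.71e-08). Sptb, a beta-spectrin of the membrane skeleton, stood at 438, 261, 279 and 401 CPM against 104, 66.7, 101 and 26.4 CPM (log2 fold 2.14 ± 0.84, edgeR adjusted p = 3.59e-06). Neither gene overlapped. Ahnak2 did overlap, at 107, 113, 31 and 129 CPM against 0, 8.34, 16.8 and 79.3 CPM, and its call was lost without frame 1 (1.60) and without frame 2 (1.63). The 10 most negative folds included those of Cngb1, Prox1, Rax, Slc6a6, Stx3, Gngt1, Rlbp1, Cnga1 and Gpr37. Several of these are photoreceptor genes, such as the rod channel subunits Cngb1 (-3.57) and Cnga1 (-3.01). Rlbp1, the retinal carrier of Müller glia, stood at 17.9, 23.7, 31 and 14.3 CPM against 233, 183, 218 and 115 CPM.

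Müller glia genes were lower than in the inner nuclear spots. All 6 tested were lower, with a median log2 fold of -1.88. Glul stood at 777, 510.0, 356 and 451 CPM in ganglion spots and 2241, 1835, 978 and 1507 CPM in inner nuclear spots, without overlap (log2 fold -1.66 ± 0.20, edgeR adjusted p = 2.80e-09). Slc1a3, the glial glutamate transporter, had a log2 fold of -2.36 and Apoe one of -2.03. Tgfb2 stood at 208, 179, 184 and 70.5 CPM in inner nuclear spots and its fold was -2.55 ± 1.30 (edgeR adjusted p = 1.55e-04).

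Other lists went both ways against the inner nuclear spots. Of 19 glycolysis and lactate genes 5 were higher and 4 lower. Tpi1, triosephosphate isomerase, rose by 0.80, and Slc2a1, the main glucose transporter, fell by 1.02. Of 4 tested genes on the trophic factor and receptor list 1 was higher, Fgf12, the intracellular regulator of sodium channels, and 2 were lower. These were Gfra1, a receptor for glial cell line-derived neurotrophic factor, which fell by 0.96, and Igf1r, whose call was lost with DESeq2.

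On the Wnt pathway list, 3 of 7 tested genes were lower than in inner nuclear spots, or 2 of 6 without Tcf4, and so was the single tested antagonist. That antagonist, Dkk3, also stands on the Müller glia list, so its fall is counted under both lists. Tcf4 stood at 107, 119, 54.2 and 100.2 CPM in ganglion spots and 287, 288, 257 and 167 CPM in inner nuclear spots. The sets did not overlap, and the log2 fold was -1.39 ± 0.52 (edgeR adjusted p = 6.87e-04). Its call was kept in the 14 other settings counted, but not with the rule without Nefl (-7.69, edgeR adjusted p = 0.123). Dkk3 stood at 277, 321, 257 and 273 CPM in inner nuclear spots, a log2 fold of -1.65 ± 0.25 (edgeR adjusted p = 5.08e-05). Ryk and Apc had log2 folds of -0.57 and -1.65. The call of Ryk was lost in 7 of 14 settings, among them the fits without frame 2 (-0.65) and frame 3 (-0.41). That of Apc was lost in 4 of 9, among them the fit without frame 3 (-1.32), a threshold of 1% (-0.97) and the same number of spots by the 7 other markers (-1.01). Ctnnb1 did not pass (edgeR adjusted p = 0.688). Wif1 had 11 UMIs in inner nuclear spots, 14.98 CPM with a 95% interval of 7.48 to 26.8.

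To see which other genes varied with the marker share among ganglion spots, the 158 spots richest in the 8 markers were compared with the 158 poorest, chosen within each frame. The split uses the same share as the rule, so it is no independent measure of how ganglion spots differ. Their median depth was 735 ± 131 UMIs in the richest and 907 ± 67.8 UMIs in the poorest (SD, n = 4). Of 711 genes tested, 2 (0.281%) passed edgeR's test, and 98 had an unadjusted p under 0.05, but none of 768 passed with the same number of spots by the 7 markers other than Nefl (78 with an unadjusted p under 0.05 in edgeR's test). Actb, beta-actin, stood at 843, 1336, 1464 and 1636 CPM in the marker-rich spots and 3864, 3311, 2275 and 3501 CPM in the marker-poor spots. The sets did not overlap, and the log2 fold was -1.33 ± 0.67 (edgeR adjusted p = 1.61e-04), which became -0.71 with those spots (adjusted p = 0.277). Ube2ql1 stood at 181, 914, 678 and 451 CPM against 118, 137, 297 and 46.7 CPM, with overlap between frames and a log2 fold of 1.89 ± 0.97 (edgeR adjusted p = 0.0234). The call of Ube2ql1 was lost in 8 of 11 settings, among them the fits without frame 1 (2.16), frame 2 (1.51) and frame 4 (1.62) and the spots by the 7 markers (0.93). None of the 3 tested identity genes, 16 cytoskeletal genes or 12 presynaptic genes passed, where 0, 1 and 1 had an unadjusted p under 0.05 in edgeR's test and DESeq2 called 0.

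The frames were not alike in all respects. In the other spots, myelin genes made up 0.0124%, 0.0562%, 0.615% and 0.718% of UMIs in frames 1 to 4. Pigment epithelium genes made up 0.362%, 0.681%, 0.577% and 0.191% there, and Clu stood at 8115, 8492, 8940 and 2675 CPM. The values that follow are those of the ganglion spots. The 24 identity genes made up between 0.232% and 0.269% of the UMIs in ganglion spots. The rod genes ranged from 0.235% in frame 2 to 0.397% in frame 3, the amacrine genes from 0.162% in frame 4 to 0.202% in frame 2, and the Müller glia genes from 0.0674% in frame 3 to 0.126% in frame 1. The protein genes of the mitochondrial genome ranged from 2.00% in frame 4 to 2.85% in frame 2. These are single values per frame with no group label behind them, so their order was not tested.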

How the data were processed

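The deposited files hold raw UMI counts per gene and spot for spots over tissue. Per the submitters' processing notes they were made with Space Ranger against mm10. The scale factor files were not used, and spot positions were not used here. Spots were chosen by the rule given above, UMI counts were summed per frame and spot set, and CPM values were computed from these sums over all genes. Symbols shared by more than 1 gene (38) were not named. A gene can stand on more than 1 list, as Nefh, Gad1 and Dkk3 do, and is then counted in each. Differences were tested with edgeR 4.0.16 in R 4.3.3 (TMM, filterByExpr with a minimum count of 10, robust glmQLFit, frame as block, Benjamini-Hochberg over all genes tested, limit 0.05), checked on simulated counts. The simulation changed a small set of genes with many UMIs, at a fixed dispersion and without a frame effect. It therefore does not cover calls on genes with few UMIs. The block is the frame itself, since both sums of a pair come from 1 library. Log2 folds per frame used a prior count of 2. Doublet callers do not apply to spots. The rule, the 30 gene lists (499 genes) and the comparisons were chosen with earlier results of these data known. Named genes were, per comparison, the 10 genes with the highest and the 10 with the lowest fold among called genes of 1 sign in 4 of 4 frames, 3 genes per list by lowest p, and fixed genes. Some of these are not reported here. Further genes of the lists were named after their values were seen. Alternatives were no filter, DESeq2 1.42.0, no replicate block, each frame left out, thresholds of 1% and 2%, a minimum of 500 UMIs, the rule without Nefl, a random 50% of UMIs, the top 10% as inner nuclear spots and, added after seeing the data, library totals without TMM and the same number of spots by 7 markers.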

Additional observations from a re-analysis of the deposited data

Results flagged for a closer look

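In 17 of 203 values examined, 1 of the 4 frames stood apart from the other 3 by Dixon's criterion, which chance alone meets in about 1 of 20 groups of this size. Nefl in ganglion spots was 13861 CPM in frame 1 against 16339 to 16784 in the others, and the microglia genes made up 0.0463% of UMIs in frame 2 against 0.0232% to 0.0268%. Many of the following folds rest on few UMIs.

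For log2 folds against the other spots, frame 1 stood apart for Coro6 (3.70, others 2.31 to 2.53), Chrna6 (2.01, others 1.77 to 1.78), Penk (-4.23, others -0.68 to -0.56) and Slc1a2 (-0.85, others -2.001 to -1.87). Frame 4 stood apart for Trpm1 (-3.23, others -4.66 to -4.52), Cplx4 (-5.78, others -3.01 to -2.72) and Gad1 (1.299, others 0.75 to 0.81), and frame 3 for Drd4 (-3.07, others -4.26 to -4.11).

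Against the inner nuclear spots, frame 1 stood apart for Kcnh7 (0.95, others 1.54 to 1.65) and Rlbp1 (-2.98, others -2.42 to -2.35). Frame 4 stood apart for Cplx4 (-3.84, others -1.77 to -1.48) and Kif5a (0.31, others 1.31 to 1.47), frame 3 for Prox1 (-1.36, others -2.84 to -2.63) and Gpr37 (-3.49, others -1.88 to -1.71), and frame 2 for Atp1b1 (0.70, others 0.95 to 0.97).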

How the results depend on the processing

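Against the other spots, the 1702 calls ranged from 1449 to 1544 with 1 frame left out, and were 1682 without the replicate block, 1303 with DESeq2, 1122 in a random 50% of UMIs and 120 (1 higher, 119 lower) with the rule without Nefl, which leaves 28 spots. Without a filter on low counts, 653 were higher and 1276 lower (33.9% higher, against 51.2%), with a median log2 fold of -0.64 over 17322 genes. Against the inner nuclear spots, the 630 calls ranged from 443 to 588 with 1 frame left out, and were 529 without the block, 381 with DESeq2, 326 in a random 50% of UMIs, 278 against the top 10% as inner nuclear spots and 21 with the rule without Nefl. Between marker-rich and marker-poor spots the 2 calls became 1 to 3 with 1 frame left out, 1 without a filter, with DESeq2 or without the block, 68 at a threshold of 1%, 5 in a random 50% of UMIs, and 0 in edgeR's test with the rule without Nefl (0 of 12 genes with an unadjusted p under 0.05) or with the same number of spots by 7 markers (78 of 768). With 1 frame left out, the log2 ratio of median UMIs lay between 0.21 and 0.42 and the level of Wif1 between 21.1 and 32.3 CPM. The mean share of ganglion spots was 21.2% at a threshold of 1%, 9.13% at 2% and 0.854% without Nefl, and Wif1 fell to 9.53 CPM at 2%. The fold of Gfap against the other spots turned to -0.051 without a filter and -0.028 without the block, and ranged from -0.25 to 0.38 with 1 frame left out (-0.25 without frame 1), and that of Ctnnb1 against the inner nuclear spots to -0.15 in a random 50% of UMIs and ranged from -0.086 (without frame 3) to 0.39 with 1 frame left out. With the rule without Nefl, 19 of 90 named called genes turned in sign against the other spots and 5 of 31 against the inner nuclear spots. With this rule 10 of the 90 and 3 of the 31 kept their call. The cause of these shifts was not tested, beyond the fewer spots or UMIs that the settings themselves leave. The depth of 549372 UMIs in ganglion spots limits what can be said of rare genes such as Wif1, Opn4 and Axin2.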
